A study of Saccharomyces cerevisiae with 15 samples.

Results

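The genes described here encode the parts of the TORC1, protein kinase A, Snf1 and Hog1 signalling systems of Saccharomyces cerevisiae, together with the transcription factors that these systems act on. The list of 53 genes was made by name and not by measured values. Of these, 47 matched the symbol of a probe, out of 6249 genes or probes on the array. The other 6 (TCO89, CRF1, TOD6, MIG3, SAK1 and TOS3) matched no single symbol and are named only. All cells were MatA yeast of the W303 background, either the wild-type strain ACY044 or the strain ACY509, in which SNF1 was deleted. Each of 14 arrays set RNA from cells treated for 20 minutes against RNA from mid-log cells of the same strain, and 1 array set ACY509 against ACY044, both in mid-log growth. Wild-type cells were treated with 200 nM rapamycin, starved of nitrogen, starved of amino acids, moved to 0.1% glucose, given 0.375 M KCl, shifted to 42 °C or given 0.4 mM H2O2, and these 7 arrays are always listed in that order. Another 3 wild-type arrays combined treatments: loss of nitrogen and glucose, loss of glucose with 200 nM rapamycin, and loss of nitrogen with 0.375 M KCl. ACY509 cells (called snf1 below) were starved of nitrogen, given 0.375 M KCl, or moved to 0.1% or 0.02% glucose. There was 1 array for each condition, so a value on a single array has no replicate check.

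TORC1 is a kinase complex that promotes growth when nitrogen and amino acids are plentiful, and rapamycin inhibits it. Protein kinase A is switched on through Ras and cyclic AMP when glucose is plentiful and holds back stress and quiescence genes. Snf1, the yeast AMP-activated kinase, is switched on when glucose is short and relieves repression by Mig1, while the Hog1 kinase cascade answers high osmolarity. These proteins are regulated largely by phosphorylation, binding partners and location, so the level of a transcript does not give the activity of its protein.

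Every value is a log2 ratio of treated over mid-log cells, where 1 is a 2-fold rise in the treated cells and −1 a 2-fold fall. The arrays give ratios, not levels, so the abundance of one transcript cannot be set against another. On the treated arrays the share of signalling genes at least 2-fold higher or lower ran from 10.6% to 41.3%, and on 11 of 14 treated arrays it was below the share of all genes. With rapamycin it was 6 of 47 signalling genes against 22.7% of all genes, in nitrogen starvation 8 of 47 against 29.3% and in amino acid starvation 10 of 47 against 28.1%. In 0.1% glucose it was 12 of 47 against 33.8%, in KCl 9 of 47 against 28.9% and in peroxide 10 of 47 against 22.2%. Heat shock had the most, 19 of 46 signalling genes against 34.4% of all genes. The combined treatments gave 16 of 47 against 34.4% for nitrogen and glucose, 14 of 47 against 28.5% for glucose with rapamycin, and 14 of 47 against 41.4% for nitrogen with KCl. In snf1 cells it was 9 of 47 against 33.3% in nitrogen starvation, 11 of 47 against 25.7% in KCl, 16 of 47 against 30.5% in 0.1% glucose and 5 of 47 against 15.1% in 0.02% glucose. These shares were not tested against each other.

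**Figure D1:**
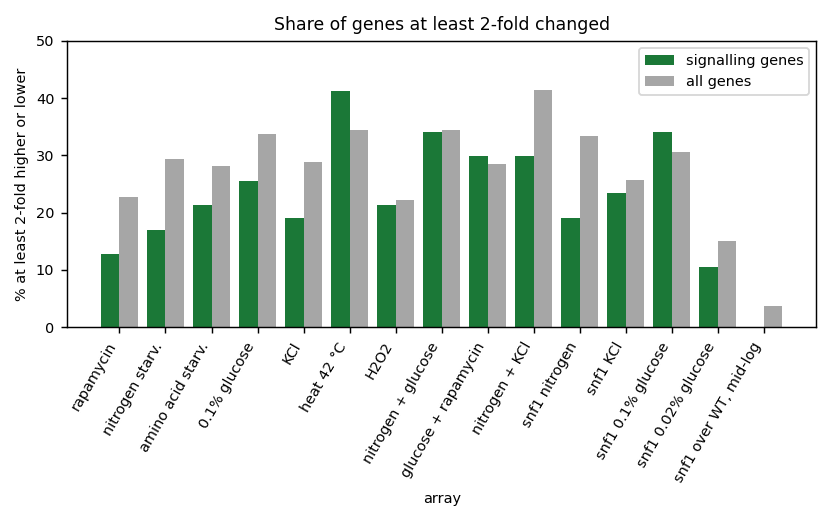
Percentage of signalling genes (green bars) and of all genes with a value (grey bars) at least 2-fold higher or lower on each of 15 arrays, 1 per condition. The green bar is highest at heat shock, 41.3%, and is at 0 on the array of snf1 over wild type in mid-log growth.

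**Figure D2:**
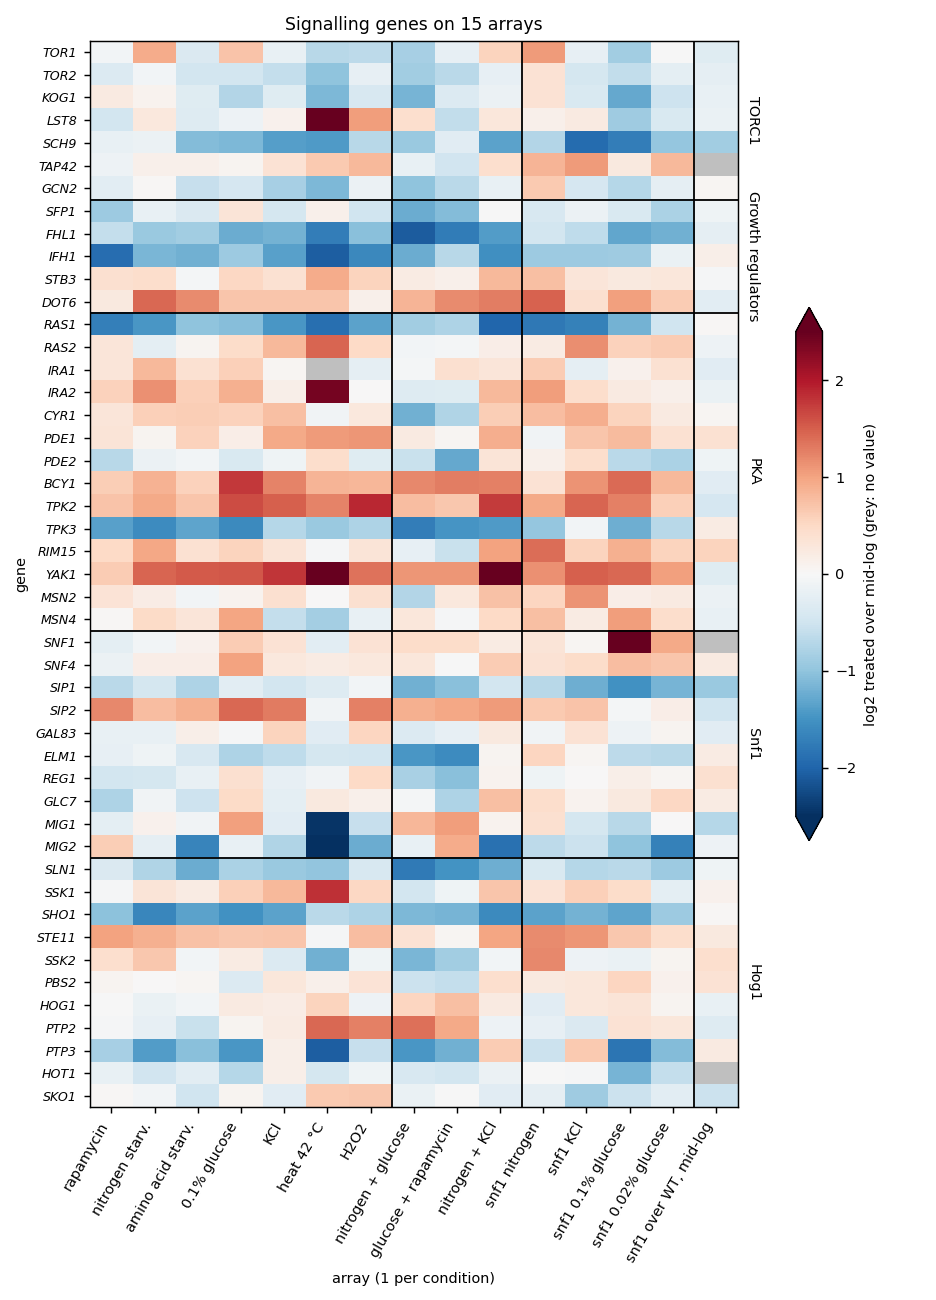
Log2 ratio of treated over mid-log cells for the 47 signalling genes (rows, grouped by system) on 15 arrays (columns), with colours capped at 2.5 in either direction and grey for no value. The last column is snf1 over wild type in mid-log growth. YAK1, TPK2, BCY1 and DOT6 are above 0 and RAS1, TPK3, SHO1, FHL1, IFH1, SLN1, SIP1 and SCH9 below 0 on all 14 treated arrays.

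SNF1, the deleted gene, could not check the strain label, because it had no value on the array of snf1 over wild type. Its ratio stayed between −0.26 and 0.64 on the 10 wild-type arrays, highest in 0.1% glucose. In the snf1 strain it was 0.32, 0.05, 2.57 and 0.95 in nitrogen starvation, KCl, 0.1% glucose and 0.02% glucose. The high ratio in 0.1% glucose is from a strain that should have no SNF1 transcript, and what the probe read there was not tested.

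The first comparison asked for a response shared by the wild-type arrays of single treatments, with limma testing the mean of those 7 arrays against 0. Of 46 genes with a value on all of them, 12 rose and 12 fell at an adjusted p under 0.05, which is 52.2% of them. Over all genes 50.9% were called (23.1% higher and 27.8% lower), so the signalling genes were called at about the rate of any gene. Their median coefficient was 0.05, against −0.05 over all genes. The spread in this test is that between treatments. The labels do not say whether the arrays shared mid-log cells, and the part of a shared control in these calls was not tested. All of these arrays but peroxide had the treated cells in Cy5, and the part of dye bias was not tested either. IRA1, which had no value at heat shock, was not tested. With 1 of the 7 arrays left out in turn, 16 of the 24 calls held each time, and 8 (CYR1, ELM1, GCN2, IRA2, RIM15, SIP1, SSK1 and TOR2) missed the threshold at least once, with adjusted p between 0.0512 and 0.0878.

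**Figure D3:**
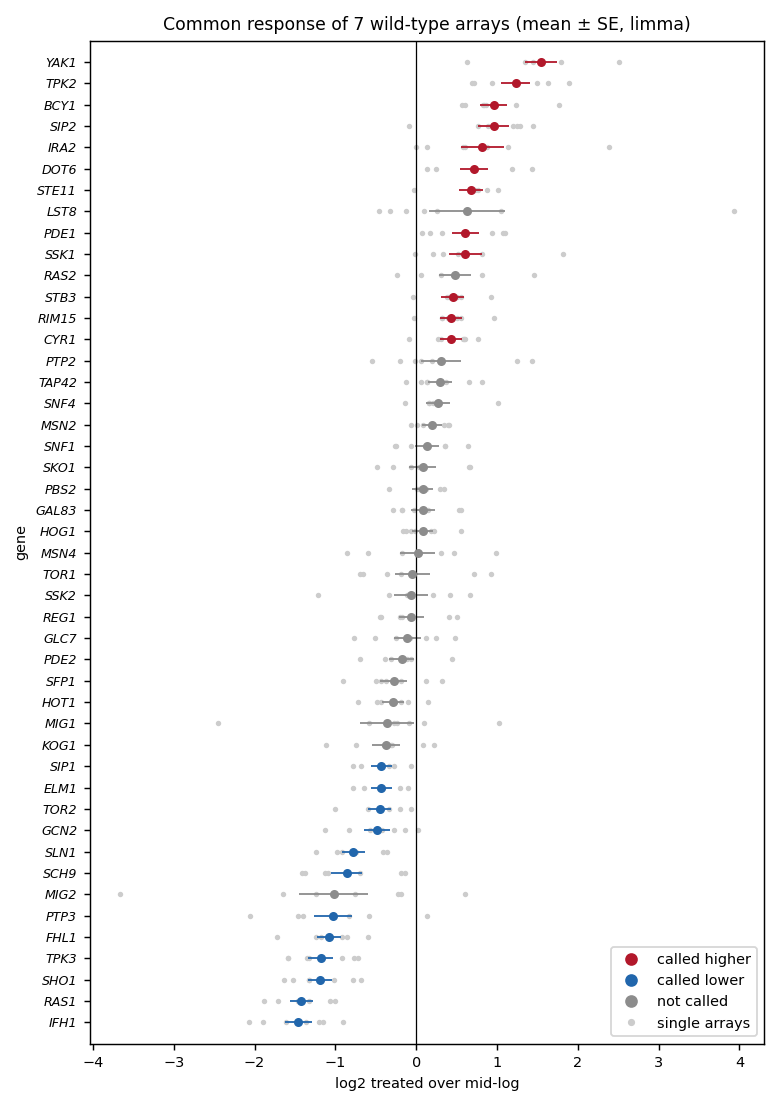
Mean log2 ratio over the 7 wild-type single-treatment arrays (large points, bars ± SE from limma) for 46 signalling genes, with the single arrays as small grey points. Red points were called higher, blue points lower and grey points neither. YAK1 (1.55) is highest and IFH1 (−1.46) lowest, and the widest scatter is that of LST8, MIG1 and MIG2, each set by the heat shock array.

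Of the 13 protein kinase A genes tested, the largest of the groups, 7 rose and 2 fell, beside 23.1% higher and 27.8% lower over all genes, and the groups were not tested against each other. Upstream, RAS1, one of a pair of Ras GTPases that switch on adenylate cyclase, was at −1.71, −1.46, −1.0, −1.07, −1.46, −1.88 and −1.33 on the 7 arrays. All of these were 2-fold or more below mid-log, and RAS1 fell with a coefficient of −1.42, SE 0.143 and adjusted p = 0.000104. RAS2, the other GTPase, did not follow it. It was at 0.31, −0.24, 0.06, 0.46, 0.82, 1.46 and 0.49, lowest in nitrogen starvation and highest at heat shock, and did not pass (coefficient 0.48, SE 0.196 and adjusted p = 0.0643).

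IRA2 encodes a GTPase-activating protein that switches Ras off. Its values were 0.58, 1.14, 0.60, 0.88, 0.14, 2.39 and 0.00, highest at heat shock and at the baseline in peroxide, and it rose with a coefficient of 0.82, SE 0.261 and adjusted p = 0.0257. Its paralogue IRA1 was at 0.82 in nitrogen starvation and otherwise between −0.22 and 0.59. CYR1, the adenylate cyclase gene, rose by a small amount (coefficient 0.43, SE 0.138 and adjusted p = 0.0253) over values of 0.31, 0.59, 0.61, 0.58, 0.76, −0.09 and 0.27. It turned the other way when glucose was removed together with nitrogen (−1.20) or with rapamycin (−0.75). Of the cyclic AMP phosphodiesterase genes, PDE1 (low affinity) rose with a coefficient of 0.61, SE 0.168 and adjusted p = 0.0137, while PDE2 (high affinity) was between −0.70 and 0.44 and did not pass.

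The subunits of the kinase itself parted. TPK2, a catalytic subunit, was at 0.72, 0.94, 0.69, 1.63, 1.49, 1.24 and 1.89 and rose with a coefficient of 1.23, SE 0.176 and adjusted p = 0.000486. TPK3, another catalytic subunit, was at −1.35, −1.58, −1.32, −1.59, −0.72, −0.92 and −0.77 and fell with a coefficient of −1.18, SE 0.154 and adjusted p = 0.000312. The 2 genes had opposite signs on all 14 treated arrays, snf1 cells included, where TPK2 was at 0.95, 1.46, 1.25 and 0.60 and TPK3 at −0.97, −0.06, −1.22 and −0.69 in nitrogen starvation, KCl, 0.1% and 0.02% glucose. BCY1, the regulatory subunit that keeps the catalytic subunits inactive without cyclic AMP, was at 0.61, 0.86, 0.57, 1.77, 1.24, 0.84 and 0.83 and rose with a coefficient of 0.96, SE 0.165 and adjusted p = 0.00122. It stayed high in the combined treatments (1.21, 1.27 and 1.26), so BCY1 and TPK2 were above 0 and TPK3 below 0 in each wild-type condition.

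Downstream of protein kinase A, YAK1, a kinase that opposes it and acts in growth arrest, gave the largest rise of the list. Its values were 0.63, 1.45, 1.54, 1.55, 1.79, 2.51 and 1.35, and it rose with a coefficient of 1.55, SE 0.198 and adjusted p = 0.000286. It reached 2.69 when nitrogen starvation was combined with KCl, above either treatment alone, and in snf1 cells it was at 1.15, 1.5, 1.44 and 1.02 in the same order as before. At least 2-fold rises were seen for YAK1 on 13 of 14 treated arrays, all but rapamycin (0.63). RIM15, a kinase needed for entry into quiescence, rose only slightly (coefficient 0.43, SE 0.14 and adjusted p = 0.0275). It was at 0.96 in nitrogen starvation, 1.00 with KCl added and 1.40 in starved snf1 cells, and at −0.55 without glucose in rapamycin.

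Neither of the stress activators that the kinase keeps out of the nucleus was called. MSN2 was at 0.34, 0.19, −0.07, 0.09, 0.41, 0.01 and 0.40 and MSN4 at 0.03, 0.47, 0.31, 0.99, −0.60, −0.85 and −0.18. CTT1, a catalase gene they activate, was at 0.91, 1.10, 1.66, 3.25, 6.48, 5.94 and 2.96 over the same arrays. In KCl the target was therefore at 6.48 with MSN2 at 0.41 and MSN4 at −0.60.

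Among the TORC1 genes, counted together with GCN2, 3 of 7 fell and none rose, with a median coefficient of −0.37. Over all genes 27.8% were called lower. SCH9, a kinase that TORC1 phosphorylates, was at −0.19, −0.14, −1.09, −1.13, −1.38, −1.41 and −0.69 and fell with a coefficient of −0.86, SE 0.192 and adjusted p = 0.00469. The falls were in amino acid starvation, low glucose, KCl and heat, and SCH9 was near 0 with rapamycin and in nitrogen starvation. SKN7, a response regulator gene next to SCH9 in the RefSeq gene order, also fell (coefficient −1.07, SE 0.12, adjusted p = 0.000155). TOR2, the kinase shared with TORC2, fell with a coefficient of −0.45, SE 0.141 and adjusted p = 0.0244, lowest at heat shock (−1.01). TOR1, the kinase found only in TORC1, did not pass, but its arrays spread widely: −0.07, 0.93, −0.36, 0.71, −0.19, −0.69 and −0.66. It was highest in nitrogen starvation, where starved snf1 cells had 1.07 and cells with added KCl 0.56, while rapamycin left it at −0.07. Over the 7 arrays KOG1, the Raptor homologue, ran from −1.12 at heat shock to 0.22 with rapamycin and was not called. TAP42, a phosphatase regulator under TORC1, was between −0.13 and 0.82 and was not called either.

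LST8, a subunit of both TOR complexes, had the highest single value of the list. It was at −0.46, 0.26, −0.32, −0.13, 0.10, 3.93 and 1.05, so heat shock stood far above the rest and peroxide came next. SIS1, a heat shock gene for an Hsp40 chaperone, lies beside LST8 on the opposite strand by its locus tag. By the gene order the 2 genes are transcribed away from each other. SIS1 was at −0.75, −0.53, −1.23, −0.39, 0.88, 3.89 and 0.98. The 2 neighbours therefore had nearly the same ratio at heat shock and in peroxide. Without nitrogen and glucose they were also close, LST8 at 0.42 and SIS1 at 0.48. On the other combined arrays they were on opposite sides of 0. LST8 was at −0.62 and SIS1 at 0.51 without glucose in rapamycin, and at 0.29 and −0.57 in nitrogen starvation with KCl. In KCl, nitrogen starvation and amino acid starvation they were further apart. Why the ratios were close on some arrays was not tested, nor whether the LST8 probe takes up signal from its neighbour. GCN2, the kinase that senses uncharged tRNA and raises translation of GCN4, fell slightly (coefficient −0.48, SE 0.161 and adjusted p = 0.0324). It was at −0.57 in amino acid starvation, the treatment it answers to, and its output gene HIS4 was at 3.07 there.

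Of 5 regulators of ribosomal genes 2 rose and 2 fell. FHL1, which binds ribosomal protein promoters, was at −0.59, −0.92, −0.86, −1.24, −1.18, −1.72 and −1.05 and fell with a coefficient of −1.08, SE 0.151 and adjusted p = 0.000437. IFH1, the coactivator that Fhl1 recruits, was at −1.90, −1.15, −1.20, −0.90, −1.36, −2.07 and −1.61 and fell with a coefficient of −1.46, SE 0.166 and adjusted p = 0.00016, the lowest coefficient of the list. SFP1, an activator of ribosomal protein and ribosome biogenesis genes, was not called (coefficient −0.28, SE 0.162 and adjusted p = 0.178) and was above 0 in 0.1% glucose (0.32) and at heat shock (0.12). On the repressor side, DOT6, which represses ribosome biogenesis genes, was at 0.24, 1.43, 1.18, 0.69, 0.70, 0.69 and 0.13 and rose with a coefficient of 0.72, SE 0.175 and adjusted p = 0.00721, highest in nitrogen starvation and lowest in peroxide. STB3, another repressor of those genes, rose by less (coefficient 0.45, SE 0.137 and adjusted p = 0.0201). NOP56, a ribosome biogenesis gene under this control, was at −2.44, −3.37, −2.09, −2.90, −3.73, −2.20 and −1.14, and RPL3, a ribosomal protein gene, at −0.40, −1.03, −0.54, −0.73, −0.49, −1.04 and −1.66. With rapamycin IFH1 was at −1.90 and FHL1 at −0.59, whereas loss of nitrogen and glucose gave −1.25 and −2.08.

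Of 10 Snf1 pathway genes 1 rose and 2 fell. The kinase works with 1 of 3 alternative beta subunits that set its location, and these did not move together. SIP2 was at 1.20, 0.77, 0.89, 1.44, 1.29, −0.09 and 1.25, high everywhere except at heat shock, and rose with a coefficient of 0.96, SE 0.189 and adjusted p = 0.00243. SIP1 was at −0.68, −0.44, −0.78, −0.27, −0.46, −0.33 and −0.06 and fell with a coefficient of −0.43, SE 0.13 and adjusted p = 0.0198. GAL83, the nuclear form in low glucose, was at −0.18, −0.18, 0.15, −0.03, 0.55, −0.29 and 0.53 and was not called. SNF4, the activating subunit, was near 0 except in 0.1% glucose (1.01). ELM1, an activating kinase of Snf1, fell with a coefficient of −0.43, SE 0.128 and adjusted p = 0.0187 and was lowest when glucose was lost with nitrogen (−1.45) or with rapamycin (−1.57). The phosphatase subunit genes REG1 (between −0.45 and 0.50) and GLC7 (between −0.77 and 0.48) were not called.

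Within the Snf1 genes, the glucose repressors MIG1 and MIG2 had the widest ranges over the 7 arrays, 3.48 and 4.27. MIG1 was at −0.24, 0.10, −0.09, 1.03, −0.28, −2.45 and −0.58, and MIG2 at 0.61, −0.23, −1.65, −0.19, −0.76, −3.66 and −1.24, both lowest at heat shock. Neither passed, since the spread between treatments was larger than the mean: a coefficient of −0.36, SE 0.332 and adjusted p = 0.392 for MIG1 and a coefficient of −1.02, SE 0.426 and adjusted p = 0.0706 for MIG2. MIG1 was highest on the 3 wild-type arrays with less glucose, at 1.03 in 0.1% glucose, 0.83 without nitrogen and glucose and 1.04 without glucose in rapamycin. MIG2 was at −1.65 in amino acid starvation and at −1.87 in nitrogen starvation with KCl. SIP2 lies beside MIG2 on the same strand in the RefSeq gene order, and their ratios were apart on every one of the 7 arrays.

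In the Hog1 pathway 2 of 11 genes rose and 3 fell. Both membrane sensors among these 11 genes fell. SHO1, a sensor of one branch, was at −1.02, −1.64, −1.33, −1.52, −1.33, −0.68 and −0.78 and fell with a coefficient of −1.19, SE 0.153 and adjusted p = 0.000295. SLN1, the histidine kinase of the other branch, was at −0.36, −0.75, −1.24, −0.80, −0.92, −0.98 and −0.41 and fell with a coefficient of −0.78, SE 0.142 and adjusted p = 0.00166. Of the genes below them some rose and some fell. SSK1, the response regulator below Sln1, rose with a coefficient of 0.61, SE 0.208 and adjusted p = 0.0341, from −0.02 with rapamycin to 1.82 at heat shock. STE11, the MAP kinase kinase kinase below Sho1, rose with a coefficient of 0.68, SE 0.146 and adjusted p = 0.00404 and was near 0 at heat shock alone (−0.03). YPD1, which passes phosphate from Sln1 to Ssk1, fell (coefficient −0.58, adjusted p = 0.0123), as did STE20, a kinase above Ste11 (coefficient −1.38, adjusted p = 0.000207). PBS2, the MAP kinase kinase, was at 0.07, 0.01, 0.04, −0.34, 0.29, 0.12 and 0.34 and HOG1 at −0.01, −0.16, −0.06, 0.22, 0.18, 0.55 and −0.13, and neither was called. HOG1 reached 0.76 without glucose in rapamycin. SSK2, a MAP kinase kinase kinase of the Sln1 branch, was on both sides of 0, at 0.42, 0.67, −0.06, 0.21, −0.34, −1.21 and −0.11, and was not called (coefficient −0.06, SE 0.212 and adjusted p = 0.832).

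The phosphatases that switch Hog1 off behaved differently from each other. PTP3 was at −0.83, −1.40, −1.05, −1.46, 0.14, −2.06 and −0.58 and fell with a coefficient of −1.03, SE 0.237 and adjusted p = 0.00539, KCl being the exception. It was also above 0 on the other 2 arrays with KCl, at 0.63 in nitrogen starvation with KCl and 0.65 in snf1 cells, and below 0 on the remaining 11 treated arrays. This set of arrays was picked out after its values were seen, and no test was made of it. PTP2 was at −0.02, −0.20, −0.55, 0.06, 0.20, 1.43 and 1.25 and was not called, being highest at heat shock and in peroxide. It was also at 1.37 without nitrogen and glucose. The transcription factor genes HOT1 (between −0.72 and 0.15) and SKO1 (between −0.49 and 0.67) were not called, while GPD1, a glycerol synthesis gene under Hog1, was at −0.13, −0.17, 0.37, 1.71, 3.95, 3.34 and 2.41.

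Several of these genes are paralogue pairs, of which 7 had both members measured. Over the 14 treated arrays TPK2 was above TPK3 on 14, by 1.29 to 3.22 (median 2.19), and RAS2 above RAS1 on 14, with RAS1 minus RAS2 between −3.34 and −0.73 (median −1.79). SIP2 was above GAL83 on 14 arrays, by a median of 0.74, and PTP2 above PTP3 on 12 of 14, by a median of 1.29, with the exceptions in the KCl arrays with nitrogen starvation and of snf1 cells. TOR1 was above TOR2 on 12 of 14, by a median of 0.30, IRA2 above IRA1 on 10 of 13, with IRA1 minus IRA2 at a median of −0.22, and MSN2 above MSN4 on 7 of 14. These are differences of ratios, described without a test, and cross-hybridisation between paralogues would shrink them.

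**Figure D4:**
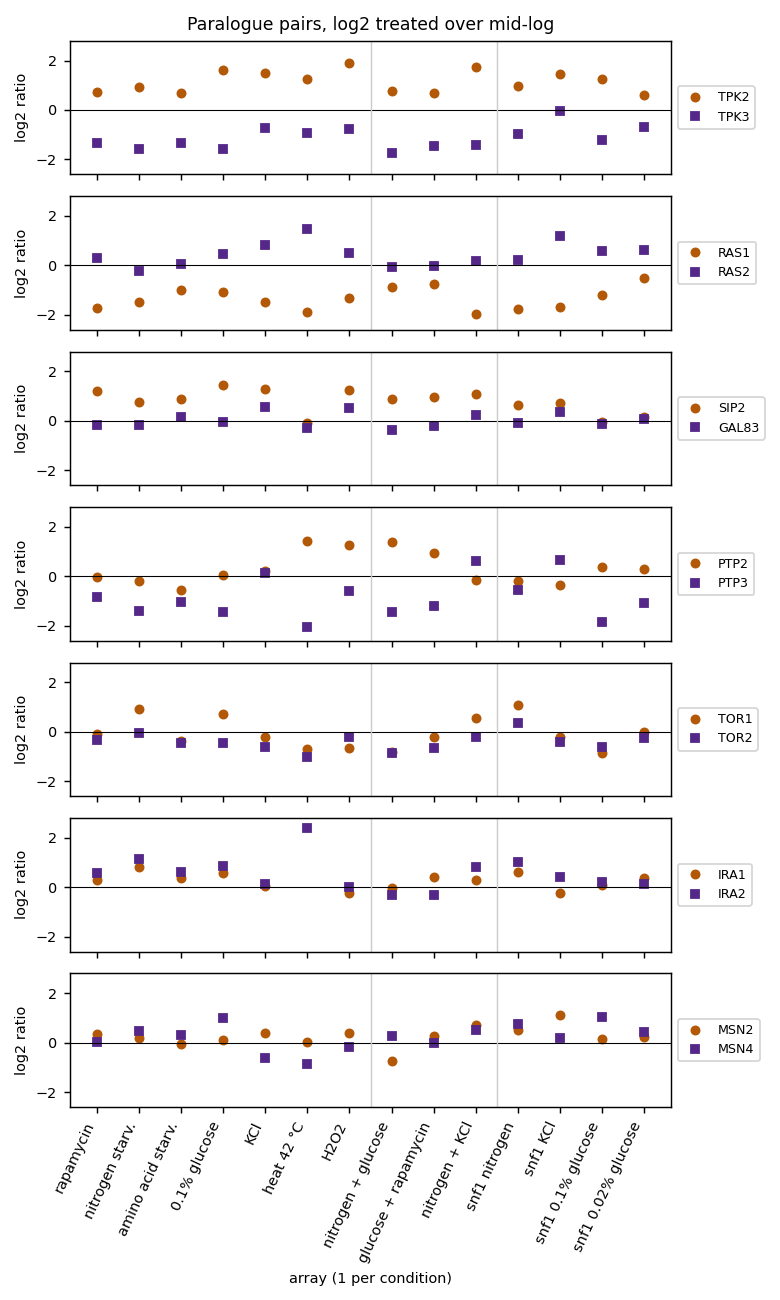
Log2 ratio of treated over mid-log cells for 7 paralogue pairs on the 14 treated arrays: 7 wild-type single treatments, 3 combined treatments and 4 snf1 arrays, separated by grey lines. TPK2 and TPK3 lie on opposite sides of 0 throughout, RAS1 lies below RAS2 throughout, and PTP3 comes above 0 on the 3 KCl arrays.

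Across all 14 treated arrays 4 signalling genes were above 0 each time (DOT6, BCY1, TPK2 and YAK1), or 8.7% of the 46 with every value, against 11% of all genes. A further 8 were below 0 each time (SCH9, FHL1, IFH1, RAS1, TPK3, SIP1, SLN1 and SHO1), or 17.4% against 15% of all genes. At the other end, 7 genes never reached a 2-fold change on a treated array: STB3, IRA1, GAL83, GLC7, PBS2, HOG1 and SKO1. IRA1 had no value at heat shock, and the share of all genes that never reached 2-fold was not computed.

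Other genes of the same pathways were followed as lists, each to be read beside the 23.1% of all genes called higher and 27.8% called lower. Of 18 further TOR genes tested 7 rose and 2 fell, led by the kinase genes YPK2 (1.06) and NPR1 (0.84) and by NPR2 (0.70), of a complex that inhibits TORC1, with AVO1 of TORC2 at −0.68 and the Sit4 partner gene SAP190 at −0.63. Of 11 genes around GCN and the retrograde response 2 fell, GCN3 (−0.95) and GCN1 (−0.75). Among 16 further protein kinase A genes 3 rose, GPA2 (1.46), the G protein subunit of glucose sensing, SDC25 (0.73) and ERF2 (0.70), and 2 fell, PPH3 (−1.03) and CDC25 (−0.51), the Ras exchange factor. Among 15 further Snf1 genes the activators ADR1 (1.78) and CAT8 (1.65) rose, and 4 fell, led by GRR1 (−0.70), the corepressor CYC8 (−0.69) and STD1 (−0.63). Of 19 further Hog1 genes 4 rose, led by STE50 (0.65), RCK2 (0.58) and PTC3 (0.50), and 7 fell, led by the kinase gene STE20 (−1.38), the sensor gene MSB2 (−1.27) and SKN7 (−1.07). The median coefficients of these lists, in the same order, were 0.24, −0.11, 0.12, 0.09 and −0.14, against −0.05 over all genes.

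The second comparison set 3 starvations (nitrogen, amino acid, 0.1% glucose) against 3 stresses (KCl, heat, peroxide). No signalling gene was called by limma, 0 of 46, and none was called among all 4966 genes (0%), the lowest adjusted p being 0.274 over all genes and 0.408 over the signalling genes. At an unadjusted p under 0.05 there were 7 signalling genes and 490 genes in all. MSN4 had the lowest p of the signalling genes. It was at 0.47, 0.31 and 0.99 in the starvations and at −0.60, −0.85 and −0.18 in the stresses. The groups did not overlap for MSN4, nor for several other signalling genes, PTP2, PDE1 and TPK3 among them. The share of all genes without overlap was not computed. The MSN4 difference of 1.13 (SE 0.324, adjusted p = 0.408) did not pass. PTP2 (−1.19, SE 0.396) and PDE1 (−0.76, SE 0.277) had the next lowest p and were higher in the stresses.

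The third comparison took all 10 wild-type arrays in one additive model, with a term for less glucose (3 arrays) and a term for nitrogen starvation or rapamycin (5 arrays). For the glucose term limma called 0 of 46 signalling genes, against 0.267% of all genes, 13 of 4862, all higher. The called genes included CAT8 (2.60, SE 0.441, adjusted p = 0.0431) and MTH1 (3.25, SE 0.515, adjusted p = 0.0259), regulators of gluconeogenesis and of glucose transporter genes on the list of further Snf1 genes. At an unadjusted p under 0.05 there were 5 of 46 signalling genes and 743 of 4862 genes in all. ELM1 was lower (−0.98, SE 0.267, adjusted p = 0.209), as were PBS2 (−0.65, SE 0.218, adjusted p = 0.237) and CYR1 (−0.81, SE 0.357, adjusted p = 0.319). MIG1 was higher (1.32, SE 0.473, adjusted p = 0.248), as was RAS1 (0.68, SE 0.266, adjusted p = 0.283), which means less far below mid-log. SUC2, the invertase gene that Mig1 represses, was at 3.11, 1.92 and 1.57 on those 3 arrays and between −0.40 and 0.04 on the other 7. For the nitrogen or rapamycin term there were 0 calls among signalling genes and 0% among all genes, with a lowest adjusted p of 0.216 over all genes. At an unadjusted p under 0.05 the term had 0 signalling genes and 167 genes in all. GAP1, a permease gene that TORC1 holds down, reached 3.32 with rapamycin and 3.86 without nitrogen.

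The combined treatments were set against their single parts without a test. No wild-type array removed glucose alone, so the 0.1% glucose array was used for that part. Loss of nitrogen and glucose differed from nitrogen starvation at least 2-fold for 12 of 47 signalling genes, against 25.9% of all genes in either direction. Of the 12, 11 were lower (TOR1, KOG1, GCN2, SFP1, FHL1, IRA2, CYR1, RIM15, ELM1, SLN1 and SSK2), with PTP2 higher. How the differences of all genes split into higher and lower was not counted. Against rapamycin alone, rapamycin without glucose differed for 8 of 47, against 15% of all genes, with IFH1 and MIG1 higher and FHL1, CYR1, RIM15, ELM1, SLN1 and SSK2 lower. TOR1 went from 0.93 in nitrogen starvation to −0.83 without glucose as well, and SSK2 from 0.67 to −1.14. The array medians were −0.15 on both arrays without glucose, against 0.01 in nitrogen starvation and −0.04 with rapamycin. Exact zeros, taken as no value, were many on the arrays of nitrogen starvation, rapamycin and KCl and few on the combined arrays, and their part in these differences was not tested. The 0.1% glucose array also had few exact zeros. Against it, 8 of 47 genes differed 2-fold without nitrogen and glucose (19.1% of all genes) and 10 of 47 without glucose in rapamycin (21%), among them CYR1 and SSK2, lower in both. Loss of nitrogen or added rapamycin cannot be told apart here from the step from 0.1% to no glucose. Nitrogen starvation with KCl differed from nitrogen starvation for 4 of 47, against 14.7% of all genes: YAK1 and PTP3 were higher and SCH9 and MIG2 lower. It differed from KCl alone for 3 of 47, against 17.8% of all genes: MSN4 and GLC7 were higher and MIG2 lower. Each difference rests on 1 array a side.

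The last comparison asked whether snf1 cells answered differently from wild-type cells over nitrogen starvation, KCl and 0.1% glucose, with the treatment as a block. No signalling gene was called by limma, 0 of 47, against 0.0185% of all genes, 1 of 5401, which was SIP18 (−2.98, SE 0.215, adjusted p = 0.0388). At an unadjusted p under 0.05 there were 5 signalling genes and 738 genes in all. SCH9 was lower in snf1 cells (−0.58, SE 0.183, adjusted p = 0.331), as were SIP1 (−0.75, SE 0.245, adjusted p = 0.331) and SIP2 (−0.72, SE 0.292, adjusted p = 0.361). TPK3 (0.55, SE 0.19, adjusted p = 0.34) and TAP42 (0.53, SE 0.208, adjusted p = 0.359) were higher. These 5 were named after their values were seen.

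By size, the strains differed mainly in low glucose, the only treatment of the 3 where neither strain's array had many exact zeros. At least 2-fold differences were found for 0 of 47 signalling genes in nitrogen starvation (4.41% of all genes), 0 of 47 in KCl (4.23%) and 5 of 47 in 0.1% glucose (20.6%). Apart from SNF1 itself, the genes were MIG1, at 1.03 in wild-type and −0.70 in snf1 cells, TOR1, at 0.71 and −0.86, SIP2, at 1.44 and −0.04, and SIP1, at −0.27 and −1.51. All 4 were lower in snf1 cells. In 0.02% glucose snf1 cells had MIG1 at 0.00, TOR1 at −0.01, SIP2 at 0.16 and SIP1 at −1.17. Between 0.02% and 0.1% glucose in snf1 cells 1 of 47 differed 2-fold, SNF1 itself, against 12.9% of all genes. SUC2 was at 0.42 in 0.1% glucose and at 0.05 in 0.02% glucose in these cells. In mid-log growth 0 of 44 signalling genes differed 2-fold between the strains, against 3.76% of all genes. SIP1 (−0.92), SCH9 (−0.86) and MIG1 (−0.72) were lowest in the mutant there and RIM15 (0.55) highest. SIP1 and SCH9 were thus low in the mutant before treatment and lower again relative to that level after it.

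**Figure D5:**
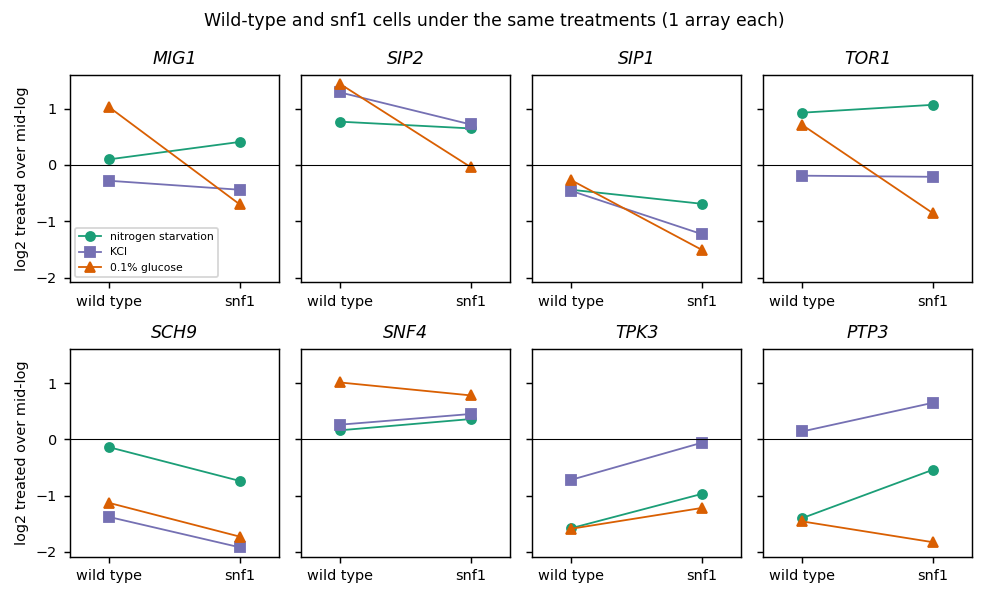
Log2 ratio of treated over mid-log cells of the same strain for 8 signalling genes in wild-type and snf1 cells, 1 array a point, with lines joining nitrogen starvation (circles), KCl (squares) and 0.1% glucose (triangles). For MIG1, SIP2, SIP1 and TOR1 the 0.1% glucose line falls by more than 1 from wild type to snf1, while the lines of the other treatments stay within 1.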

How the data were processed

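The deposited table holds log ratios of Cy5 over Cy3, read as log2, for 15 arrays, rounded to 2 decimals by the authors. Neither the log base nor the background correction, normalization or spot filters are stated in what was used here. Base 2 was taken from the size of the values, and another base would rescale every value. Per the labels, the peroxide array carried treated cells in Cy3, so its sign was turned (correlations with the other 6 wild-type single treatments −0.640 to −0.479 as deposited, 0.501 to 0.652 turned). No other array had that dye order, so values particular to peroxide cannot be told apart from dye bias. Dye bias common to the other arrays was not tested. Exact zeros on 6 arrays (717 to 1256 each, against 21 to 48 on the others) were taken as no value.

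Symbols came from the platform table, updated through the RefSeq R64 gene table (129 of 4075), and 2181 of 6256 gene probes had none. Tests used limma 3.58.1 in R 4.3.3 over all genes with a value on every array of a comparison, with Benjamini-Hochberg adjustment over all of them and a threshold of 0.05. Values were not recentred. Named genes are members that passed a test or reached 2-fold on 3 or more arrays, with single values for the rest. Of the further pathway genes up to 3 in each direction are named for a list, and YPD1 was added after its value was seen. Members, lists and comparisons were chosen with earlier results of these data known. With 1 array per condition, the number of arrays limits the precision. Each p-value rests on the spread left between arrays after the terms of its model, not on replicates. For the common response that is the spread between treatments. The model was tested on simulated data. Alternatives were array centring, zeros kept, genes with a value on all 15 arrays, robust variance, other model terms and leaving out each array. Columns of other samples numbered 0.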

Additional observations from a re-analysis of the deposited data

Results flagged for a closer look

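MSN4, which encodes a stress activator, stood out because its ratio was above 0 in all 3 starvations and below 0 in all 3 stresses of wild-type cells. The starvation arrays exceeded the stress arrays by 1.13 on the log2 scale (SE 0.324), and the limma test of this difference did not pass over all genes (adjusted p = 0.408). No other signalling gene had opposite signs in every array of these groups, and none had them between wild-type and snf1 cells over 3 shared treatments. The share of all genes with such opposite signs was not computed.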

How the results depend on the processing

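Of 264 repeats of the 24 common-response calls (centred arrays, zeros kept, genes with a value on all 15 arrays, robust variance and each array left out), 239 kept direction and call, 25 missed the threshold and 0 reversed. All 25 came from leaving out 1 array: RIM15 (5 of the 7 arrays), CYR1 and GCN2 (4 each), SSK1 and TOR2 (3 each) and ELM1, IRA2 and SIP1 (2 each). The signalling genes called ran from 8 to 12 higher and 9 to 12 lower with 1 array left out, and all genes called from 931 to 1180 higher and 1148 to 1389 lower. In the other 4 comparisons 0 signalling genes were called under every alternative run. Over all genes, starvation against stress gave 0 to 45 higher and 0 to 5 lower with 1 array left out, the highest counts without 0.1% glucose. The snf1 comparison gave 0 to 14 higher and 0 to 33 lower, the highest without the wild-type nitrogen array. For genes lower in snf1 cells, against 1 as reported, centred arrays gave 16, and zeros kept, genes with all 15 values and no treatment block gave 0 each. The glucose term gave 5 to 18 higher and 0 to 16 lower with 1 array left out, and 1 lower with amino acid starvation counted in the nitrogen term. The nitrogen or rapamycin term gave 0 to 8 higher. The cause of these shifts was not tested. With a log2 limit of 0.5 in place of 1, the number of signalling genes past it was 18 (rapamycin), 19 (nitrogen), 22 (amino acids), 28 (0.1% glucose), 23 (KCl), 30 (heat) and 25 (peroxide) on the single wild-type arrays. It was 29 (nitrogen and glucose), 29 (glucose with rapamycin) and 26 (nitrogen with KCl) on the combined arrays, and 25 (nitrogen), 22 (KCl), 33 (0.1% glucose), 23 (0.02% glucose) and 5 (mid-log) for snf1 cells. The share of all genes past 0.5 was not computed, so these counts cannot be set against a background. The labels give no replicate numbers, so samples were paired only by treatment, in the snf1 comparison.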
